A study of Pomacea canaliculata with 12 samples.

Results

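The retina of the apple snail Pomacea canaliculata was compared with its 2 kinds of head tentacle. The comparison sets 3 libraries of extracted retina (replicates 1, 3 and 4) against the mean of 2 tissues, cephalic tentacle (replicates 1, 2 and 3) and oral tentacle (replicates 1, 2 and 3), and so uses 9 of the 12 libraries of the series. The other 3 libraries come from eye stalk, entered the same model fit, and are used below as a further measure of expression level. All libraries are poly(A) RNA from dissected tissue of the same species, and the labels name no treatment, genotype, sex or age. Nothing in the labels tells whether a tissue's libraries are separate animals or pools. The p-values therefore reflect library-to-library spread, part of which may be technical.

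Apple snails have a camera-type eye, in which a lens focuses light on a cup-shaped retina of photoreceptors and pigmented supporting cells. A retina is a thin sheet dominated by a few kinds of cell specialised for detecting light. The tentacles are whole appendages that sense touch and chemicals in the water, and they hold skin with cilia and mucus cells, muscle, nerves and blood spaces. A comparison of the retina with the tentacles therefore sets a narrow tissue against a mixed one, and in bulk RNA fewer cells of a type and less RNA per cell cannot be told apart. The genes carry LOC identifiers with no product names, so the labelled tissues could not be checked against marker genes and no function is given to any gene.

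The retina libraries held 40794864 to 45673871 counts and the tentacle libraries 10804847 to 21561988, so depth and tissue moved together. TMM scaling factors, which correct for differences in library make-up, were 0.71 to 0.77 in retina and 1.08 to 1.15 in the tentacles. Retina replicate 4 stood apart from the other retina libraries. It was at least 2-fold from the mean of the other retina libraries (log2 scale) for 10.2% of the genes called higher in retina and 29.5% of those called lower, against 2.58% to 6.84% and 21.9% to 25.3% for replicates 1 and 3. For a named gene whose fold change it moved by over 1.5-fold, the value without it is given too.

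Most of the measured transcriptome differed between retina and tentacles, with nearly as many genes gained as lost at the stated settings. Of 16811 genes with enough counts to be tested, 64.7% were called at an adjusted p under 0.05 (edgeR quasi-likelihood test), 5425 of them higher in retina (32.3%) and 5454 lower (32.4%). Without retina replicate 4 the numbers were 5110 and 5616. The numbers were near equal at the stated settings and the sizes were not. The balance of numbers moved with the processing. RLE scaling gave 4729 gains and 5880 losses, DESeq2 gave 4895 and 6320, and a minimum count of 50 gave 5079 and 4706.

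The gains were many and small, and the losses were deep. Genes higher in retina had a median fitted change of 2.05-fold, and 47.6% of them changed by less than 2-fold. Genes lower in retina had a median fitted change of 7.07-fold, and 12.7% of them changed by less than 2-fold. Below 2-fold there were 2581 gains and 695 losses, and between 2 and 4-fold 1900 gains and 1169 losses. The order then turned, with 443 gains and 1035 losses between 4 and 8-fold and 309 gains and 1521 losses between 8 and 32-fold. At 4-fold and over there were 944 gains (5.62% of genes tested), which is 17.4% of all gains, and 3590 losses (21.4% of genes tested), which is 65.8% of all losses.

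**Figure D1:**
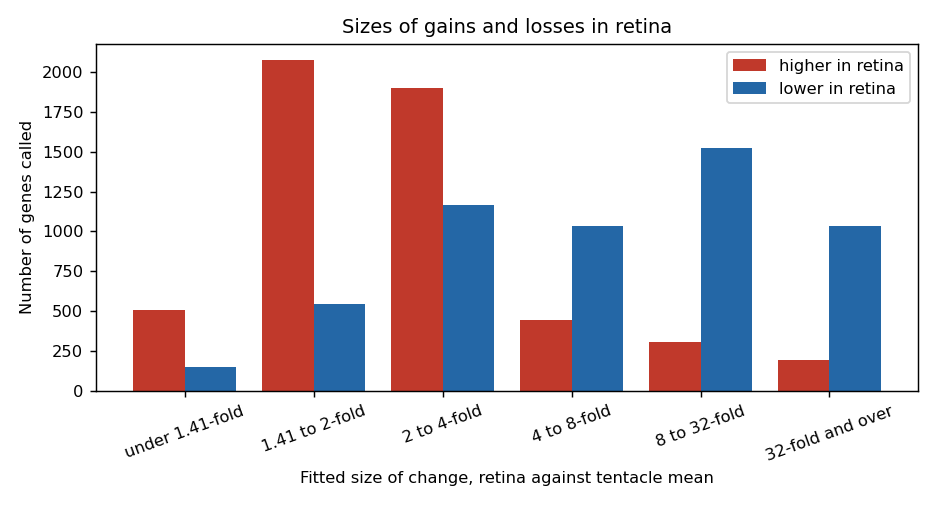
Number of genes called higher (red) or lower (blue) in retina than in the tentacle mean (vertical axis), by the fitted size of the change (horizontal axis, fold classes). Gains outnumber losses in each class below 4-fold, and losses outnumber gains in each class from 4-fold upward.

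The same asymmetry appeared when the test itself asked for a change beyond 2-fold. By edgeR's glmTreat, which tests against a minimum size of change, 31.9% of the genes tested passed: 1745 were more than 2-fold higher in retina (10.4% of genes tested) and 3620 more than 2-fold lower (21.5%), at an adjusted p under 0.05. Losses outnumbered gains in this test under all 18 alternatives in which it was run, with 1227 to 1788 gains and 3044 to 4084 losses. The directions differed in precision as well as in size: the median standard error of the log2 fold change was 0.17 for genes higher in retina and 0.50 for genes lower.

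Each retina library showed the asymmetry against the same 6 tentacle libraries, so the 3 results share a reference. The tentacle mean was taken before the log, which tilts genes uneven between tentacle libraries toward losses. Set against the tentacle mean on the scale of log2(CPM + 0.1), retina replicates 1, 3 and 4 had 868, 881 and 938 genes at least 4-fold higher and 4234, 4161 and 3859 genes at least 4-fold lower. Every library thus had over 4 times as many large losses as large gains. The middle of the distribution lay near 0 in all of them, with medians of -0.15, -0.15 and -0.03 over all genes tested, while the 5th percentiles (-5.12, -5.07 and -4.37) lay farther from 0 than the 95th (2.03, 2.05 and 2.16).

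Few of the lost genes were fully absent from retina. The median gene called lower kept 13.6% of its tentacle level, 579 genes (10.6% of those lower) kept under 1%, and 407 had 0 counts in all retina libraries. In the mirror direction, the median gene called higher already had 49.1% of its retina level in the tentacles, 82 genes (1.51% of those higher) had under 1%, and 5 had 0 counts in all tentacle libraries. A count of 0 was taken over all libraries of a side, 3 deeper ones in retina and 6 shallower ones in the tentacles. With the TMM scaling, a count of 0 is therefore not a stricter absence in retina.

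The 5 genes with 0 counts in the tentacles were low or moderate in retina (they are named because they are few, after their values were seen). LOC112562392 had 90.2, 63.3 and 113 normalised CPM (counts scaled to the TMM-adjusted library size) in retina replicates 1, 3 and 4, and against a floor of 3 counts over the tentacle libraries it was at least 3008-fold higher (edgeR adjusted p = 1.1e-05). LOC112557395 had 27.9, 21.8 and 15.3 CPM in retina, at least 727-fold higher (adjusted p = 3.95e-06). LOC112570672, LOC112566791 and LOC112572705 had means of 2.59, 1.74 and 4.24 CPM in retina. LOC112572705 had 0 counts in retina replicate 4, so its libraries overlapped those of the tentacles. Floors of this kind, here and below, cover counting error only.

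The direction of change followed expression level. Genes were placed in 6 classes of log2 CPM, taken as the mean of their retina and tentacle levels. Below 0, 124 genes were higher in retina and 1162 lower, from 0 to 2 the numbers were 292 and 1306, and from 2 to 4 they were 708 and 1505. The balance then reversed: from 4 to 6 there were 2329 genes higher and 1070 lower, from 6 to 8 there were 1603 and 345, and at 8 and over 369 and 66. Gains made up 9.64% of calls in the lowest class and 84.8% in the highest.

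**Figure D2:**
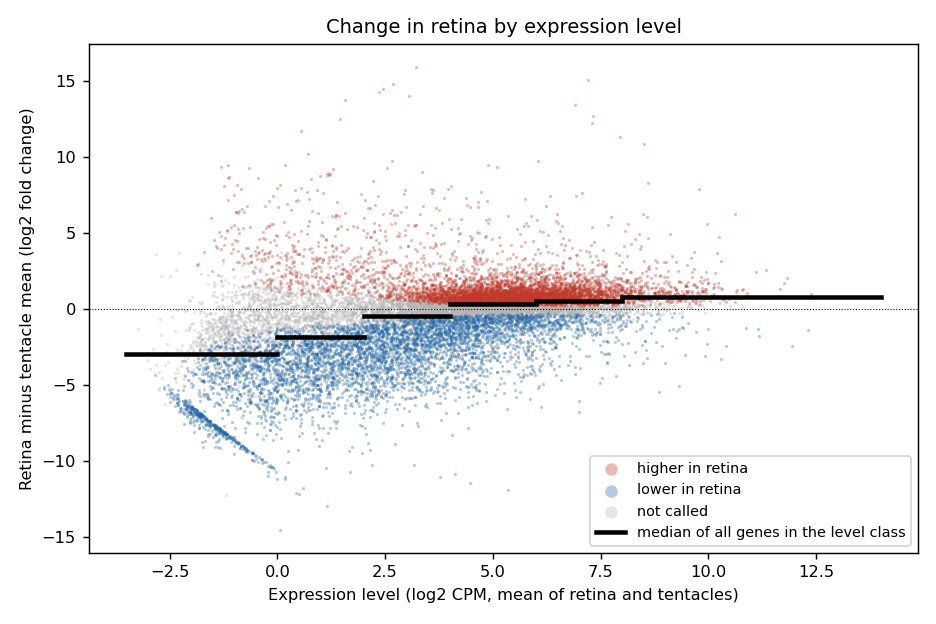
Fitted log2 fold change of retina minus the tentacle mean (vertical axis) against expression level in log2 CPM (horizontal axis) for each gene tested, red where called higher in retina, blue where called lower and grey where not called, with black bars for the median of each level class. The medians climb from -2.95 in the lowest class to 0.81 in the highest, and the narrow diagonal band at the lower left holds genes with 0 counts in retina, whose fitted values depend on a small added count.

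The sizes changed with level too. The median change of all genes tested, called or not, was -2.95, -1.80, -0.45, 0.33, 0.55 and 0.81 on the log2 scale from the lowest to the highest class. Among genes called lower the median was -5.24 below 0 log2 CPM and -1.05 from 6 to 8 log2 CPM. In the lowest class 401 of the 1162 genes called lower had 0 counts in retina, and with these at their bounds the median there was -4.56. Among genes called higher the median was 3.83 in the lowest class, 0.90 from 4 to 6 and 1.18 at 8 and over. Weakly expressed genes had to differ by more to be called, since their median standard error was 1.04 log2 units in the lowest class and 0.15 from 6 to 8.

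A level made from the compared libraries is itself pulled down in genes that either retina or the tentacles lack. The classes were therefore also made from the eye stalk libraries, which are no part of the comparison. Eye stalk was not neutral between the compared tissues. Genes called higher in retina took 48.5% of its counts, against 38.8% in the tentacles. Genes called lower took 25.8% of its counts, against 33.1% to 36.3% in the tentacles. Gained genes can therefore stand higher by eye stalk level, and lost genes lower. How far that shaped the shares by class was not tested. The reversal stayed at the same class. By eye stalk level, 22.2% of the calls below 0 log2 CPM were gains, 36.7% from 2 to 4, 63.1% from 4 to 6 and 69.4% at 8 and over. The losses among abundant genes were more and deeper by this measure, with 657 genes lower from 6 to 8 log2 CPM and 133 at 8 and over, at median log2 changes of -1.66 and -2.06. Gains from 6 to 8 log2 CPM numbered 1391, with a median of 0.96.

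**Figure D3:**
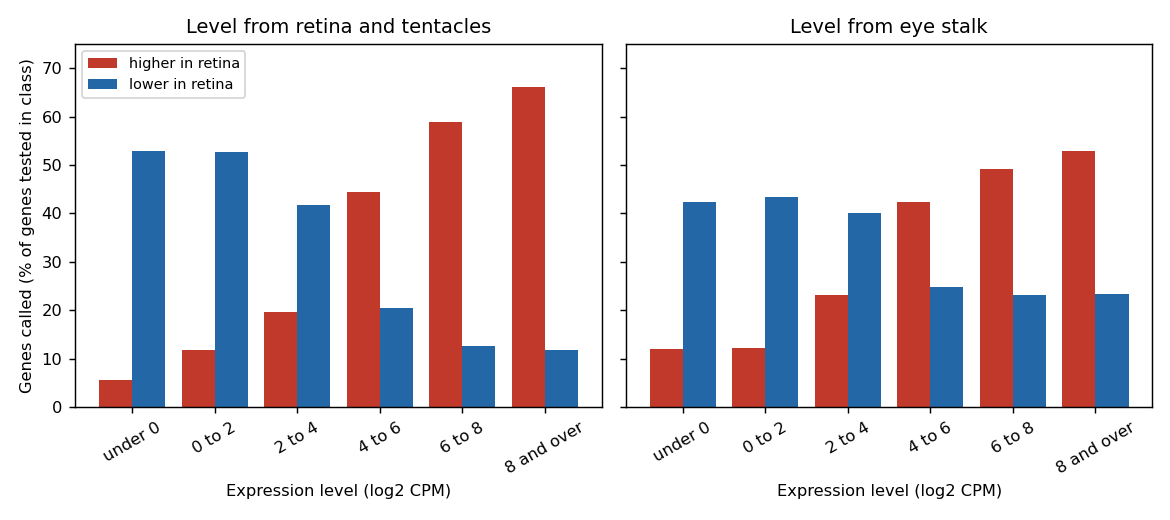
Share of the genes tested in each expression class (vertical axis, percent) that were called higher (red) or lower (blue) in retina than in the tentacle mean, with classes of log2 CPM (horizontal axis) taken from the compared libraries on the left and from eye stalk on the right. In both panels losses exceed gains below 4 log2 CPM and gains exceed losses above it.

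Where 0 lies on the fold-change axis depends on the scaling, and with it the balance of calls. Relative to the stated scaling, whose median over all genes was -0.04, the median moved to -0.17 with RLE scaling and to -0.28 with upper-quartile scaling. Upper-quartile scaling called 4113 genes higher in retina and 6277 lower, so that 39.6% of calls were gains in place of 49.9%. With both scalings losses still exceeded gains in every class below 4 log2 CPM and gains exceeded losses in every class above it, the closest being 1674 gains and 1363 losses from 4 to 6 log2 CPM with upper-quartile scaling.

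Counts were concentrated in fewer genes in retina. With every library thinned to the same total, the 100 most abundant genes of each library took 26.8%, 25.9% and 32.8% of the counts in retina replicates 1, 3 and 4, and in the tentacle libraries the lowest, median and highest shares were 16.7%, 17.9% and 19.4%. All retina libraries lay above all tentacle libraries. The difference was 10.5 percentage points (exact permutation test, two-sided, p = 0.0238, adjusted over 2 measures 0.0238, the smallest that 84 splits allow), and it was 8.37 points without retina replicate 4, where the smallest possible p is 0.0714. The effective number of genes, the exponential of the Shannon entropy of the count shares, was 2658 ± 589 in retina and 5060.2 ± 244 in the tentacles (SD, n = 3 and 6, exact permutation test, two-sided, p = 0.0238, adjusted 0.0238). Cephalic and oral libraries of equal number deviated together, and the test counts them as independent.

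Genes higher in retina filled most of the retina transcriptome. They took 76.3 ± 0.15% of the counts in retina and 38.8 ± 0.86% in the tentacles (SD, n = 3 and 6). Genes lower in retina took 6.1 ± 0.07% of the counts in retina and 33.1% to 36.3% in the tentacles. Both sets were picked from the same libraries, and their shares are a description that supports no direction. Of the 100 most abundant genes of retina, 93 were called higher there, 3 lower and 4 not called, and of the 100 most abundant genes of the tentacles, 33 were higher in retina, 48 lower and 19 not called. The 2 lists of 100 shared 33 genes (33.0% of each), while the lists of cephalic and oral tentacle shared 84.

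The 5 most abundant genes with higher levels in retina follow, 4 of them uneven between its libraries. Genes named here and below for abundance, largest change or lowest p were picked only where retina and tentacle libraries do not overlap. Their separation was thus fixed by the choice and is no result. The level of LOC112562530 was 4439, 6609.6 and 130760.2 CPM in retina replicates 1, 3 and 4, against a lowest, median and highest of 0.80, 1.10 and 2.69 CPM in the tentacles. LOC112576458 had 3538, 7111 and 41782 CPM in retina, against 1.46, 2.34 and 4.16 CPM in the tentacles (log2 fold change 12.72 ± 0.84, SE, edgeR adjusted p = 8.9e-07). Both were far higher in replicate 4 than in the other retina libraries, and without that library the log2 fold change was 11.95 for LOC112562530, against 15.05 with it, and 11.002 for LOC112576458.

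LOC112555961 and LOC112567738 went the other way within retina. LOC112555961 had 28573, 19991 and 2452 CPM in retina replicates 1, 3 and 4, against 209.6, 219 and 254 CPM in the tentacles (lowest, median and highest), a log2 fold change of 6.24 ± 0.56 that was 6.75 without replicate 4 and 5.64 without replicate 1. LOC112567738 had 25189, 17898 and 7081 CPM in retina, against 4.81, 8.92 and 16.4 CPM in the tentacles (10.85 ± 0.43, and 11.21 without replicate 4). Replicate 4 was the lowest retina library for both. LOC112555734 was even across retina, with 13765, 11870.3 and 15772 CPM, against 45.6, 52.7 and 73.2 CPM in the tentacles, a log2 fold change of 7.92 ± 0.27 (edgeR adjusted p = 1.5e-08).

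The most abundant tentacle genes that were lower in retina mostly stayed well expressed there. LOC112556451 had 2172, 2164 and 1089 CPM in retina replicates 1, 3 and 4, against a lowest, median and highest level of 3641, 9905 and 15858 CPM in the tentacles (log2 fold change -2.44 ± 0.57, edgeR adjusted p = 0.0035). LOC112575079 had 1732, 1533 and 687 CPM in retina, against 3092, 4029 and 7488 CPM in the tentacles (-1.77 ± 0.43, adjusted p = 0.0040). LOC112574048 had 553, 446 and 267 CPM, against 2708, 3543 and 7199 CPM (-3.26 ± 0.31, adjusted p = 1.1e-05). In these 3 genes, picked for a lack of overlap, replicate 4 was the lowest retina library.

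LOC112566133 and LOC112556050 fell much further. LOC112566133 had 48.2, 55.4 and 292 CPM in retina and 3705, 4238 and 5638 CPM in the tentacles (lowest, median and highest), and its log2 fold change of -5.07 ± 0.65 became -6.42 without replicate 4. LOC112556050 had 0.585, 0 and 3.07 CPM in retina replicates 1, 3 and 4. In the tentacles it ranged from 476 to 9767 CPM, and it fell by 11.85 ± 1.83 on the log2 scale (edgeR adjusted p = 0.00024) or by 13.90 without retina replicate 4.

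Of the 6 largest fitted gains, 5 were of genes with 1 to 3 counts in all tentacle libraries together, and LOC112562530 was the other. LOC112573779 stood at 554, 569 and 1411 CPM in the 3 retina libraries with 1 tentacle count, a ratio of 86287 (95% counting interval 15486 to 3408197), or 56917 (10215 to 2248155) without retina replicate 4. LOC112558777 had 441, 412 and 298 CPM in the same libraries and a total of 1 tentacle count, a ratio of 38750 (6954 to 1530582). LOC112576987 had 239, 219 and 279 CPM in retina and 1 tentacle count (ratio 24897, 4468 to 983410), and LOC112557022 had 267, 196 and 383 CPM and 1 tentacle count (28638, 5140 to 1131181). In LOC112558777, LOC112576987 and LOC112557022 the retina libraries differed by less than 2-fold among themselves, and the ratios are limited by how few tentacle counts there were. LOC112553742 had 543, 419.8 and 765 CPM in retina and 3 tentacle counts (19491, 6669 to 94516), or 1 without cephalic replicate 1 (44124, 7919 to 1742827). Without the 1 tentacle library that held its count, each of the other 4 was at least 6262-fold to at least 25456-fold higher in retina. These 5 genes were called at an edgeR adjusted p of 3.1e-07 or less.

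**Figure D4:**
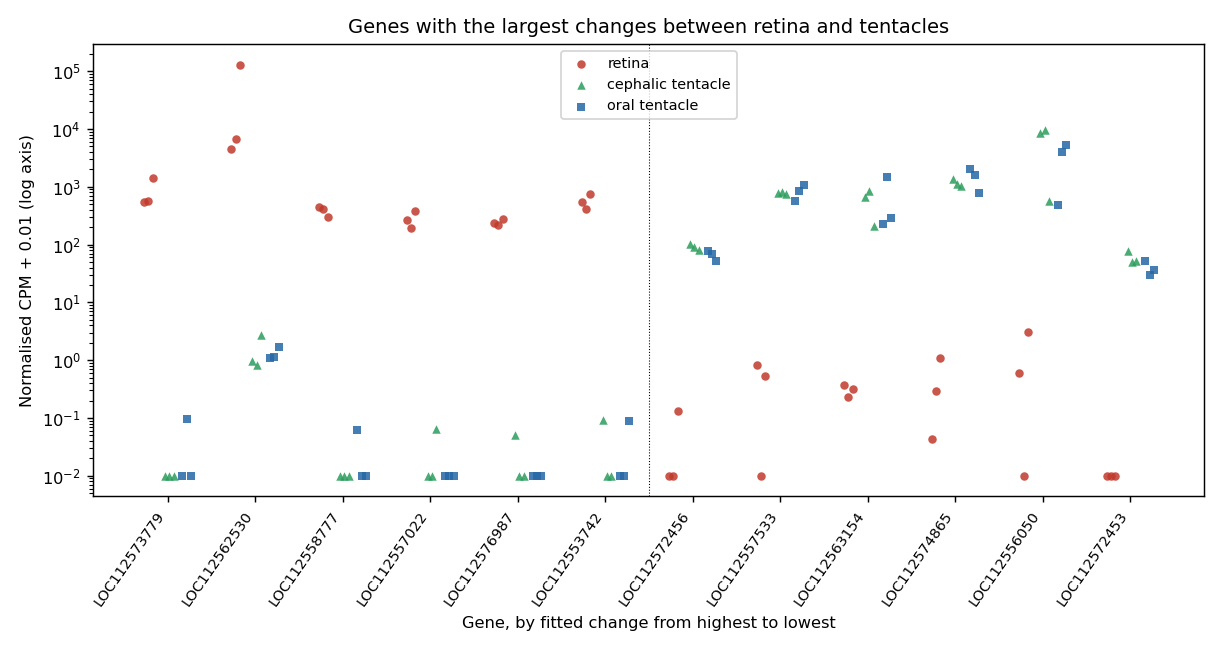
Normalised CPM plus 0.01 on a log axis (vertical) in each retina (red circles), cephalic tentacle (green triangles) and oral tentacle (blue squares) library for the 6 genes with the largest fitted gain and the 6 with the largest fitted loss in retina (horizontal axis, left and right of the dotted line). Retina and tentacle libraries do not overlap for any of these genes, because a lack of overlap was required for the choice.

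The largest fitted losses, like the largest gains, were taken among genes at a level of 1 log2 CPM or more. A gene near 0 in retina passes that limit only when well expressed in the tentacles, as these were. LOC112557533 had 0.812, 0 and 0.521 CPM in retina replicates 1, 3 and 4, against 573, 791 and 1090.5 CPM in the tentacles (lowest, median and highest), a log2 fold change of -10.81 ± 1.25 (edgeR adjusted p = 3.6e-05) that was -11.55 without retina replicate 1. LOC112563154 had 0.357, 0.217 and 0.307 CPM in retina, against 208, 478 and 1496 CPM in the tentacles (-11.01 ± 1.32, adjusted p = 4.4e-05, and -10.39 without oral replicate 2). LOC112574865 had 0.0325, 0.279 and 1.07 CPM, against 797, 1264 and 2074 CPM (-11.45 ± 2.01, adjusted p = 0.00056), which became -12.97 (adjusted p = 0.0021) without retina replicate 4. The tentacle libraries spread most in LOC112563154. In all 3 genes every retina library lay far below every tentacle library. The choice by lack of overlap and largest fitted loss favours such a gap, so it is no result.

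LOC112572453 and LOC112572456, a pair next to each other in the reference gene order, were lost together. No retina library held a count of LOC112572453, whose lowest, median and highest tentacle levels were 29.7, 51.4 and 78.9 CPM, at least 1723-fold lower in retina. LOC112572456 had 0, 0 and 0.123 CPM in retina replicates 1, 3 and 4, against 52.7, 79.7 and 102 CPM in the tentacles (log2 fold change -10.67 ± 0.95, edgeR adjusted p = 6.1e-06). All its retina counts were in replicate 4, and without that library it was at least 1726-fold lower in retina. If the pair are copies of one gene, the authors' counting, which the sources do not describe, could have split reads between them.

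The genes with the lowest p in each level class were others than those with the largest changes. Among gains, LOC112563139 had 10538, 11733 and 14599 CPM in retina replicates 1, 3 and 4, against 3.85, 5.01 and 5.81 CPM in the tentacles (lowest, median and highest), a log2 fold change of 11.30 ± 0.27 (edgeR adjusted p = 5.4e-09). LOC112572734 had 175, 165 and 178 CPM in retina, against 0.563, 0.784 and 0.976 CPM in the tentacles (7.83 ± 0.24, adjusted p = 1.2e-08). LOC112575455, in the highest class, had 1093, 1137 and 1003 CPM, against 110.5, 124 and 130 CPM (3.15 ± 0.10, adjusted p = 1.2e-08).

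The remaining 3 classes gave gains that were also clear of the tentacle range. LOC112566642 had 305, 359.6 and 355 CPM in retina and a tentacle median of 4.89 CPM, LOC112572952 had 25.4, 14.9 and 16.3 CPM and a tentacle median of 0.237 CPM, and LOC112563024 had 3.67, 2.83 and 2.51 CPM and a tentacle median of 0.114 CPM. Their log2 fold changes were 6.12 ± 0.20, 6.17 ± 0.32 and 4.61 ± 0.45 (edgeR adjusted p = 1.4e-08, 2.2e-07 and 1.1e-05). In each, as the choice required, the lowest retina library stood above the highest tentacle library.

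Among the losses with the lowest p were 3 whose retina libraries lay close together. LOC112572761 had 0.13, 0.155 and 0.153 CPM in retina replicates 1, 3 and 4, against 19.99, 27.5 and 32.4 CPM in the tentacles (lowest, median and highest), at a log2 fold change of -7.45 ± 0.25 (edgeR adjusted p = 1.5e-08). LOC112558009 had 0.552, 0.528 and 0.582 CPM in retina, against 29.4, 40.1 and 50.1 CPM in the tentacles (-6.16 ± 0.28, adjusted p = 9.9e-08). LOC112570734 had 8.45, 8.16 and 10.1 CPM, against 69.2, 78.0 and 106 CPM (-3.20 ± 0.14, adjusted p = 8.0e-08). In these 3 genes the highest retina library lay well below the lowest tentacle library. A choice by lowest p among genes without overlap favours close libraries and a wide gap, so neither is a result.

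The remaining classes gave losses at both ends of the scale. LOC112558212 had 24.99, 28.1 and 18.8 CPM in retina, against 237, 271 and 312 CPM in the tentacles (lowest, median and highest), a log2 fold change of -3.51 ± 0.19. LOC112564262 had 181, 235 and 342 CPM in retina, against 1778, 2012 and 2659 CPM in the tentacles, a log2 fold change of -3.02 ± 0.25. For LOC112573953 the retina counts were 0 and the tentacles held 4.85, 6.01 and 7.09 CPM, at least 193-fold lower. All 3 were called at an edgeR adjusted p of 3.9e-06 or less.

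Most calls came with a clean separation of the libraries. The retina libraries lay wholly above or wholly below the 6 tentacle libraries in 56.4% of the genes tested, above in 27.8% and below in 28.6%. Genes that were both called and separated made up 54.7% of those tested. Of the genes called higher, 4532 (83.5%, or 27.0% of genes tested) were separated in this way, and of the genes called lower 4663 (85.5%, or 27.7% of genes tested). The spread within tissue was wider for the losses: the median coefficient of variation was 43.4% in retina and 33.9% in the tentacles for genes lower in retina, and 16.7% and 14.8% for genes higher in retina. Losses were also more frequent among weakly expressed genes, whose standard errors were larger, and the directions were not compared at equal level.

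Strong losses and strong gains each lay next to their like in the genome more often than all genes did. Genes were set in the order of the RefSeq assembly ASM307304v1, which may not be the build behind the counts and is used only to tell neighbours. It holds all 21131 identifiers, and it gives 14502 pairs of adjacent protein-coding genes in which both were tested. After a gene called at least 8-fold lower in retina (genes at 0 counts at their bounds), the next gene was also at least 8-fold lower in 45.9% of pairs, while 14.1% of all next genes were. After a gene called at least 8-fold higher, 15.9% of next genes were as well, against 2.85% of all next genes. With no fold limit the contrasts were smaller. After a gene called higher, 43.2% of next genes were called higher, against 33.5% of all next genes. For genes called lower the shares were 47.9% and 31.4%, and for uncalled genes 39.5% and 35.1%. The 8-fold limit was chosen after the data were seen, and the shares are descriptions with no test.

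Lost and gained neighbours formed runs. Of 2552 genes called and at least 8-fold lower in retina (15.2% of genes tested), 1418 (55.6%) stood in 488 runs of adjacent genes that all met the limit, and 94 runs held 4 genes or more. Of 501 genes called and at least 8-fold higher (2.98% of genes tested), 115 (23.0%) stood in 51 runs, the longest of 5. With more genes in the set, longer runs are to be had, so the directions are not compared by run length. Adjacent genes in such runs may be copies of one another that share reads, and their changes are then not separate measurements.

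Both of the longest runs held 15 genes. From LOC112573771 to LOC112574527 the summed level of the run was 15.7, 14.8 and 26.1 CPM in retina replicates 1, 3 and 4, against 716, 630.2 and 466 CPM in cephalic tentacle replicates 1, 2 and 3 and 759, 527 and 422 CPM in the same-numbered oral replicates. In all 15 genes of this run the retina libraries lay below every tentacle library, with log2 fold changes of -6.74 to -3.13 (genes at 0 counts at their bounds). In the other run, from LOC112554526 to LOC112553833, the sum was 30.5, 22.7 and 38.7 CPM in retina and 520.3 to 1976 CPM in the tentacles, and 12 of 15 genes separated in this way. None of these 30 genes was called between cephalic and oral tentacle (edgeR, adjusted p).

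The longest run of gained neighbours was at low level and nearly empty outside retina. It ran from LOC112566787 to LOC112566792 and summed to 29.7, 36.8 and 41.5 CPM in the 3 retina libraries and to 0.0514 to 1.40 CPM in the tentacle libraries. The first, LOC112566787, had 10.95, 16.3 and 17.6 CPM in retina replicates 1, 3 and 4, against 9 counts in all tentacle libraries, LOC112566790 had 13.8, 13.7 and 15.3 CPM and 47 tentacle counts, and LOC112566791, LOC112566792 and LOC112566793 had retina means of 1.74, 2.46 and 2.56 CPM with 0, 2 and 2 tentacle counts. The eye stalk libraries summed to 1.97, 0.499 and 1.30 CPM for the run, close to the tentacle sums, and every gene of the run separated retina from the tentacles.

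The tentacle reference is the mean of 2 tissues, so each was also used alone. Against cephalic tentacle 60.0% of the genes tested were called, 29.8% as gains in retina (5003) and 30.2% as losses (5076). Against oral tentacle 59.5% were called, 28.8% as gains (4842) and 30.7% as losses (5165), by edgeR at an adjusted p under 0.05. Among genes called higher against the mean, the median log2 fold change was 1.04 against cephalic and 1.02 against oral tentacle. Among genes called lower it was -2.79 and -2.82. The mean reference gave a smaller standard error, with a median over all genes tested of 0.28, against 0.32 for each tentacle type alone.

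Both references use the same retina libraries, so their likeness is no independent check. The counts were as follows: 4333 genes (79.9% of those called higher against the mean) were called higher against each type, and 4530 (83.1% of those called lower) were called lower against each. A further 2342 genes were called against 1 type only. The direct test between the tentacle types called 30 of these (1.28%), so for the others a difference between the references was not shown. Over all genes tested, the direct test called 58 genes (0.345%), of which 26 (0.155%) were higher in cephalic tentacle and 32 (0.19%) lower, and 1533 had an unadjusted p under 0.05. DESeq2 called 375, and edgeR called 23 to 38 without cephalic replicate 1, 2 or 3 or oral replicate 1 or 2.

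**Figure D5:**
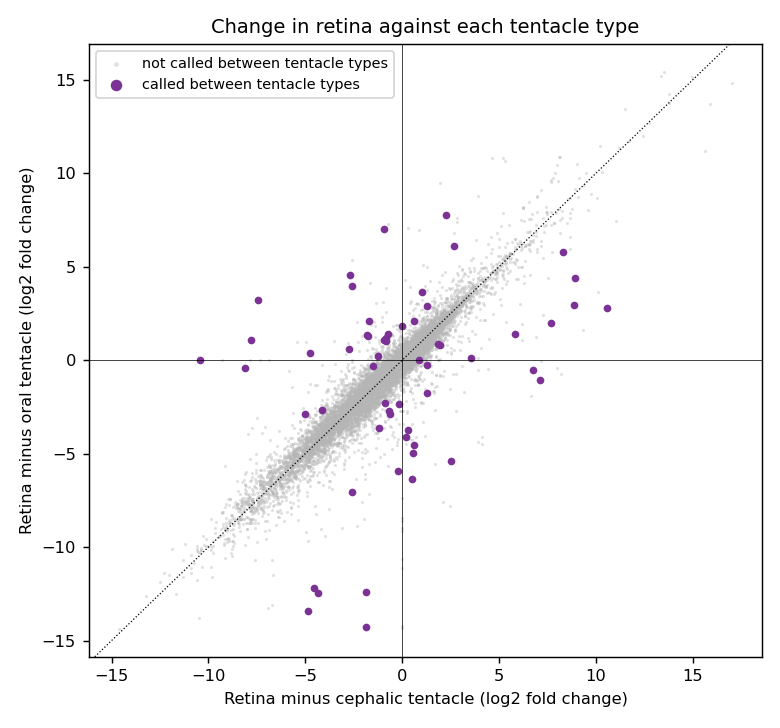
Fitted log2 fold change of retina minus cephalic tentacle (horizontal axis) against retina minus oral tentacle (vertical axis) for each gene tested, with the 58 genes called between the tentacle types in purple and a dotted line where both changes are equal. Most genes lie along the line, and the retina libraries are shared by both axes.

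In some genes the tentacle types differed enough to change what retina looked like. Of the genes called against the tentacle mean, 43 were also called between cephalic and oral tentacle. They were 0.369% of the genes higher in retina and 0.422% of those lower, near the 0.345% of all genes tested. LOC112554608 had 1.82, 1.55 and 1.72 CPM in retina, 60.8, 40.03 and 34.9 CPM in cephalic tentacle and 1.85, 0.773 and 1.23 CPM in oral tentacle. Its log2 fold change in retina was -4.73 ± 0.37 against cephalic tentacle (edgeR adjusted p = 4.8e-06), and against oral tentacle it was 0.38 ± 0.34 (adjusted p = 0.36), and these changes differed (adjusted p = 0.00061). LOC112575956 had 0, 0.31 and 0.276 CPM in retina, 48.8, 45.1 and 41.8 CPM in cephalic tentacle and 0.103, 0 and 0.154 CPM in oral tentacle. In both genes the retina libraries lay in or near the oral range and below every cephalic library.

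In other genes 1 tentacle type was nearly empty. LOC112572019 had 3.54, 4.66 and 2.21 CPM in retina, 0, 0.0726 and 0 CPM in cephalic tentacle and 8.83, 8.58 and 4.30 CPM in oral tentacle. Its fitted change against the mean was 3.04 ± 0.53 (edgeR adjusted p = 0.00053), the mean being taken between log-scale coefficients, and with the tentacle libraries as 1 group it was -0.06 (adjusted p = 0.98). LOC112555577 had 7.34, 9.16 and 12.1 CPM in retina, 0.161, 0 and 0.0539 CPM in cephalic tentacle and 15.8, 13.3 and 11.6 CPM in oral tentacle, and its call was lost in the same way (0.49, adjusted p = 0.78). In both genes every retina library lay above every cephalic library, and the retina range overlapped the oral range. Without 1 cephalic library, the one with the highest level, the fitted changes were 4.03 for LOC112572019 and 3.75 for LOC112555577.

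Retina was above both types in the remaining genes chosen for a difference between them. LOC112571885 had 124, 141 and 169 CPM in retina, 0.161, 0.145 and 0.593 CPM in cephalic tentacle and 15.4, 14.6 and 25.4 CPM in oral tentacle. LOC112554716 had 58.6, 69.8 and 68.8 CPM in retina, 7.52, 13.7 and 9.81 CPM in cephalic tentacle and 0.976, 1.03 and 0.845 CPM in oral tentacle. Their log2 fold changes against the mean were 5.93 ± 0.34 and 4.39 ± 0.21 (edgeR adjusted p = 3.6e-07 and 1.3e-07), and the direction was the same against each type alone.

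A total of 9 genes were called in opposite directions against the 2 tentacle types, and 0 of them were called against the mean. Retina was lower than cephalic and higher than oral tentacle in 8, and the reverse in 1. LOC112561949, one of the 8, had 172, 141 and 125 CPM in retina, 258, 288 and 241 CPM in cephalic tentacle and 66.6, 57.9 and 68.1 CPM in oral tentacle. LOC112571036 was the 1 in the reverse direction, with 4.78, 2.08 and 1.84 CPM in retina, 1.33, 1.02 and 1.24 CPM in cephalic tentacle and 5.91, 16.1 and 7.30 CPM in oral tentacle. Both were picked after their values were seen. In LOC112561949 the retina libraries overlapped neither tentacle type, and its change against the mean was 0.17 (edgeR adjusted p = 0.31).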

How the data were processed

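RNA was isolated with Trizol and selected for poly(A), per the labels' protocols. The authors deposited raw counts for 21131 genes in 12 libraries, as whole numbers without normalization. STAR is the aligner named in the submitters' processing notes. Its version, the counter and strand mode, and the build and annotation used are not given in the sources at hand.

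From the counts, genes were filtered with filterByExpr (minimum count 10), which left 16811, and libraries were scaled with TMM. edgeR 4.0.16 (R 4.3.3) quasi-likelihood tests (glmQLFit and glmQLFTest, robust) used 1 fit of all 12 libraries with tissue as the only term, and glmTreat tested changes beyond 2-fold. Cephalic and oral coefficients were averaged to give the tentacle mean. Benjamini-Hochberg adjustment covered every gene tested. SE were derived from the F statistic, and a count of 0 over a group was set to 3 counts for a bound. DESeq2 1.42.0, other scalings, filters and sets of libraries were alternatives.

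Replicate numbers come from the titles. Deviations from tissue means were correlated across genes between same-numbered cephalic and oral libraries (r = 0.38, 0.29 and 0.53 for numbers 1, 2 and 3), so these numbers were taken to pair them. The main edgeR fit has no term for this pairing, so its p-values count the tentacle libraries as independent. Retina shares only numbers 1 and 3 (r = -0.105 to 0.015). Replicate libraries all differed beyond sampling noise (chi-square per degree of freedom at least 35.01).

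Named genes were called, had no overlap of libraries between retina and tentacles, and were the 6 with the largest change each way at a level of 1 log2 CPM or more, the 1 with the lowest p each way in each level class, or the 5 most abundant each way. A further 3 each way had the lowest p between tentacle types, overlap allowed. The comparison, lists and rules were chosen with earlier results of these data known. The planned gene lists by product name and protein features were not formed, because the identifiers could be paired with neither.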

Additional observations from a re-analysis of the deposited data

Results flagged for a closer look

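The effects against the 2 tentacle types differed, by the direct test between them (edgeR, adjusted p under 0.05), in 43 of the genes called against the tentacle mean. These were 0.369% of the genes called higher and 0.422% of those called lower, near the 0.345% of all genes tested. As retina against cephalic minus retina against oral tentacle, the log2 difference was -5.11 for LOC112554608, -3.43 for LOC112554716 and -8.88 for LOC112575956. It was 7.26 for LOC112555577, 5.91 for LOC112571885 and 8.20 for LOC112572019.

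The eye stalk libraries, which are no part of the comparison, held the genes with the largest gains in retina above every tentacle library. The mean eye stalk level was 3236 CPM for LOC112562530, 306 for LOC112573779, 92.9 for LOC112558777, 78.6 for LOC112557022, 73.5 for LOC112576987 and 71.0 for LOC112553742. The labels do not say if eye stalk samples included an eye.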

How the results depend on the processing

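The numbers of genes called in retina against the mean and against each tentacle type, and those beyond 2-fold, stayed within 1.5 times the stated values under every alternative, and 0 genes changed sign between the calls reported above and those of any alternative. The replicate block, a term for the library number across tissues, gave 4861 gains and 5155 losses in retina and 39 calls between the tentacle types, and changed no call of a named gene. Only retina has a number 4, so the block fits retina replicate 4 by itself and the contrast rests on the other retina libraries. Genes called between the tentacle types numbered 23 to 83 when 1 library was left out and 375 with DESeq2. The median log2 fold change of genes higher in retina was 0.97 with upper-quartile scaling, 1.14 with the replicate block and 1.05 to 1.10 with 1 library left out. That of genes lower in retina was -3.09 with no low-count filter, -2.53 with a minimum count of 50, -3.08 with the replicate block, -2.65 with DESeq2, -2.58 with a prior count of 2, and -3.02 to -2.88 with 1 library left out. A minimum count of 50 left 664 genes at least 32-fold lower, against 1034. The share of counts in the 100 most abundant genes was 8.37 to 11.8 points higher in retina, and the difference in the effective number of genes was -2616.4 to -2066.8, with 1 library left out. Without a retina library the exact test cannot go below 0.0714.

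By expression level, RLE scaling gave medians of -1.33 (lower, 4 to 6 log2 CPM), 0.92 and -1.035 (higher and lower, 6 to 8) and -1.39 (lower, 8 and over). A prior count of 2 gave 3.07 and -3.22 for genes higher and lower below 0 log2 CPM. With level from eye stalk, genes lower numbered 592 below 0, 657 from 6 to 8 and 133 at 8 and over. The medians of genes lower were then -5.97 below 0, -2.64 from 2 to 4, -2.24 from 4 to 6, -1.66 from 6 to 8 and -2.06 at 8 and over, and those of genes higher 3.40 below 0 and 1.09 from 2 to 4. The cause of these shifts was not tested. With the tentacle libraries as 1 group LOC112572019 had a log2 fold change of -0.062 and LOC112555577 one of 0.49, since that fit averages counts and not log coefficients. The counts by fold size, the bounds and the level classes with upper-quartile scaling were added after seeing the data. DESeq2 gave no adjusted p for LOC112562530, and LOC112563024 was not tested at a minimum count of 50.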
